A study of Rattus norvegicus with 82 samples.

Results

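Fkbp5 was followed in rat brain across 7 regions, 3 treatments and 2 times of day. It encodes FKBP51, an immunophilin that binds HSP90 and sits in the complex that keeps the glucocorticoid receptor in a state of low hormone affinity. Corticosterone that reaches the receptor induces Fkbp5, and the protein made then restrains the receptor, so the gene is known both as a target of the hormone and as part of a short feedback loop. Its close relative Fkbp4 encodes FKBP52, which competes for the same place on HSP90 and favours receptor transport. In rodents the adrenal output of corticosterone is high toward the start of the dark, active phase and low after lights come on. In the hippocampus, cortex and amygdala Fkbp5 transcripts are known to respond to the hormone.

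The gene was chosen by its symbol in the platform annotation, with earlier results on these arrays known, so its own levels and differences are given as a description with their spread and with no test. It is 1 of 14217 genes named on the array, and 2 of the 31099 probe sets carry its symbol, 1388901_at and 1380611_at. The probe set with the higher mean, 1388901_at, is called the first and 1380611_at the second. Neither probe set was among those called (adjusted p under 0.05, limma) in any of the comparisons over the whole array given below. Fkbp5 (gene ID 361810) lies on rat chromosome 20 from 6458931 to 6577227 in the GRCr8 assembly, a span of 118297 bases.

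Total RNA from rat brain was hybridised to 82 one-colour arrays, of which 80 carry labels that place them in 41 groups of region, treatment and time. The treatments are ADX, which commonly abbreviates adrenalectomy, the surgical loss of the adrenals, pADX, whose first letter the labels do not explain, and Sham, the usual name of the control operation. No strain, age, sex, hormone replacement or interval after surgery is given in the sources used here. The times are PM and AM. In 39 groups there were 2 arrays and in 2 there was 1 (frontal cortex ADX AM and frontal cortex Sham AM). The hippocampus had 2 pADX arrays, both labelled PM, and no pADX array labelled AM, so its pADX values cannot be separated by time. The labels do not say whether 2 arrays of a group come from separate animals or whether 1 animal gave several regions, so the spread between arrays may be technical. For the septum, hypothalamus, dorsal raphe and locus coeruleus the source names contradicted the descriptions. The titles of these arrays open with another tissue, frontal cortex or, for the hypothalamus, left hippocampi. Their region was read from the short code later in the title (S, Hypo, DR or LC).

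Against region markers, all 4 hypothalamic genes (Avp, Oxt, Hcrt, Pmch) and both raphe genes (Slc6a4, Fev) were highest in the region they mark. The locus coeruleus had 2 of 3 highest there (Dbh and Slc6a2, but not Th) and the frontal cortex 2 of 3 (Tbr1 and Slc17a7, but not Neurod6). The hippocampus (Prox1, 1 of 3), septum (Zic1, 1 of 3) and amygdala (Lmo3, 1 of 2) were less well marked: Dsp, Chat, Zic2 and Prkcd were highest elsewhere, and the hippocampal marker Tdo2 was at the floor. Deposited signals came in more than 1 scaling state, with 45 arrays at a common trimmed mean and 37 off it, between 34.1 and 171. Levels below are log2 signals after quantile normalization over all arrays, with a floor of 4 (a signal of 16). No array was at the floor for either Fkbp5 probe set. Deposited signals ran from 23.1 to 228 for the first (median 108) and from 16.2 to 118 for the second (median 53.7). Over the 80 arrays the probe sets varied together with a Pearson r of 0.70, or 0.59 once each region's mean was removed.

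The stretch around an annotated start of the gene is shown because Fkbp5 varied with several hormone-induced genes in the results that follow. RefSeq's promoter table of GRCr8 gives 250 bases before and 50 after that start at chr20:6543506-6543805 on the minus strand, which lies inside the annotated gene. Capitals mark the 50 bases after the start.
Fkbp5: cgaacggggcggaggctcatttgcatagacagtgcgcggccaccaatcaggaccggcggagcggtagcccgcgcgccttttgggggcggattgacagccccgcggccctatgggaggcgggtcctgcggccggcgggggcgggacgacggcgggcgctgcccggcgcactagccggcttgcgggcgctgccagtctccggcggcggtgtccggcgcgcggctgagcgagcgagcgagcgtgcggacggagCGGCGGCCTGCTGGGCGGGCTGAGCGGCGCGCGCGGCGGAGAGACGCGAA
These 300 bases were 77% G or C, against a median of 51.7% over all 33469 promoters in the table. The glucocorticoid receptor binds a pair of inverted half-sites, AGAACA or its reverse complement, separated by 3 bases. On both strands the window held 0 half-sites and therefore no pair. Among all promoters of this length, 20.7% held the half-site and 5 (0.0149%) held the exact pair. In human the known hormone-responsive elements of this gene lie largely in introns, outside a window of this kind.

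In Sham brains the level of Fkbp5 was graded along the regions, high in forebrain and low in the brainstem. On the first probe set it averaged 7.47 ± 0.14 in frontal cortex (SD, n = 3) and 7.42 ± 0.25 in hippocampus (SD, n = 4). The amygdala followed at 7.18 ± 0.31, the septum at 6.98 ± 0.31 and the hypothalamus at 6.71 ± 0.33 (SD, n = 4 each). Locus coeruleus, at 6.48 ± 0.10, and dorsal raphe, at 6.44 ± 0.16, had the lowest means (SD, n = 4 each). Every pair of neighbours in this order overlapped in range. Farther apart the ranges separated: the lowest Sham array of the septum stood at 6.68, above the highest of the dorsal raphe at 6.63 and of the locus coeruleus at 6.60. On the second probe set the Sham order was hippocampus (6.76), frontal cortex (6.58), amygdala (6.37), septum (6.13), hypothalamus (5.42), locus coeruleus (5.40) and dorsal raphe (5.08). Both probe sets thus gave the same 4 regions on top and the same last 3. The step from hippocampus down to dorsal raphe in Sham was 0.99 log2 units on the first probe set. It was 0.44 in the signals as deposited and 0.71 after normalization within each region, so its size depended on how the arrays were scaled.

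Region means lay closer together in ADX than in Sham on both probe sets. Those of the first probe set spanned 0.56 log2 units in ADX and 0.98 in pADX, against 1.03 in Sham, and those of the second spanned 1.01 in ADX and 1.65 in pADX, against 1.68 in Sham. The pADX spans rested on the hippocampus, whose 2 pADX arrays were both labelled PM. Over the other 6 regions, a setting chosen after seeing the data, the first probe set spanned 0.56 in ADX and 0.61 in pADX, against 1.03 in Sham, and the second spanned 1.01 in ADX and 0.96 in pADX, against 1.503 in Sham. The ADX order on the first probe set was septum (6.69), amygdala (6.51), hypothalamus (6.47), frontal cortex (6.46), dorsal raphe (6.30), hippocampus (6.21) and locus coeruleus (6.12), and again all neighbours overlapped. The hippocampus thus stood sixth of 7 in ADX and second in Sham on the first probe set. On the second it stood second in ADX and first in Sham, so this move down the order was not shared by both probe sets.

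**Figure D1:**
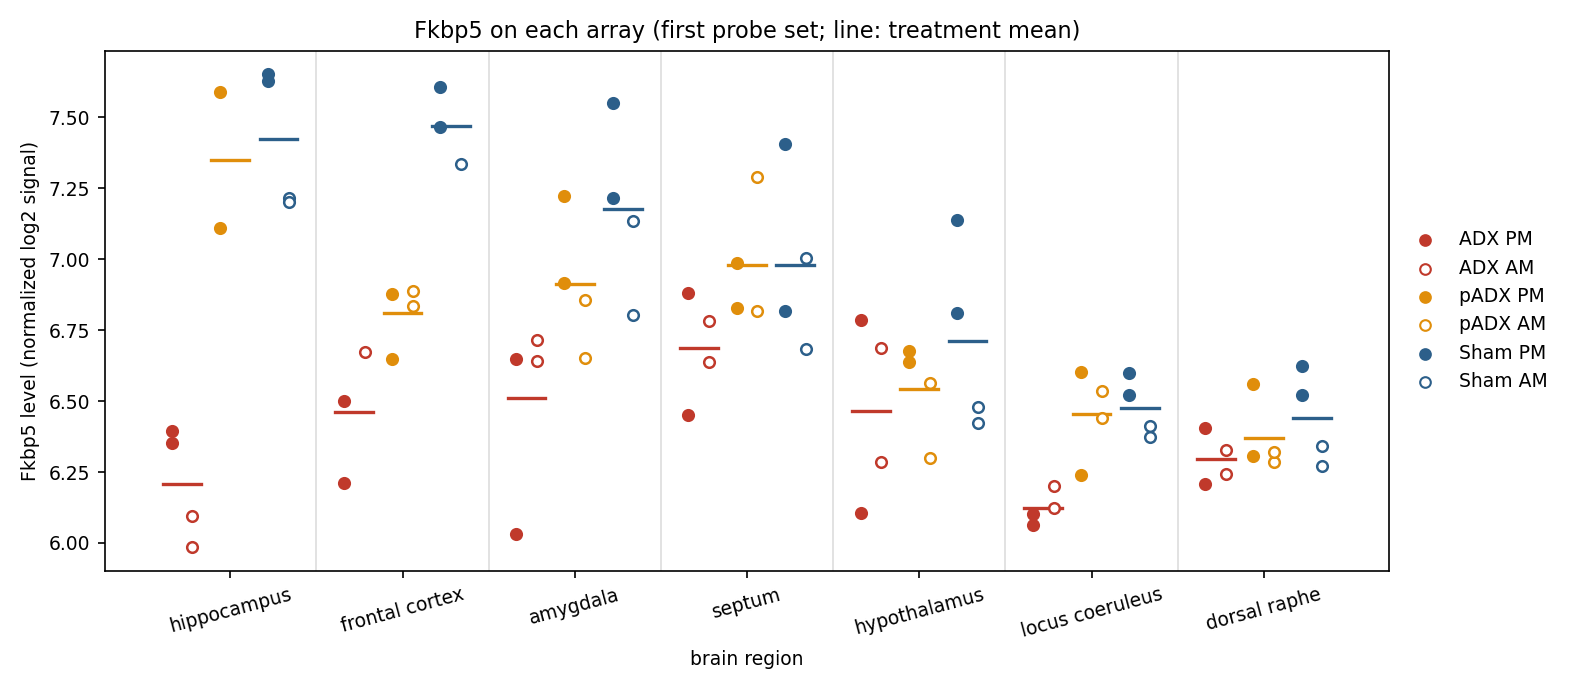
Fkbp5 level (first probe set, normalized log2 signal) on each of the 80 labelled arrays, by region on the horizontal axis, with ADX, pADX and Sham from left to right in each region, filled points for PM, open points for AM and a line at each treatment mean. The ADX arrays lie below all Sham arrays in the hippocampus, frontal cortex, amygdala and locus coeruleus. In each of the other 3 regions 2 of the 4 ADX arrays lie below the lowest Sham array and 2 lie within the Sham range.

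The hippocampus showed the widest gap between ADX and Sham of the 7 regions on the first probe set. The ADX arrays stood at 6.35 and 6.39 at PM and at 5.99 and 6.10 at AM. The 2 pADX arrays stood at 7.59 and 7.11. Sham arrays stood at 7.63 and 7.65 at PM and at 7.21 and 7.20 at AM. All 4 ADX arrays were thus below the other 6, and both treatments with a PM and AM pair had the higher values at PM. How many of all probe sets had ADX below both pADX and Sham was not determined. ADX was lower than Sham by a log2 difference of -1.22 ± 0.10 (SE), 2.33-fold, and by -0.97 ± 0.22 on the second probe set, where the groups did not overlap either. In this region limma called 1 probe set in all for ADX vs Sham (0.00322%). For pADX, with both arrays labelled PM, the difference from Sham was -0.26 ± 0.14 with time as a term and 0.09 ± 0.29 on the second probe set. It was -0.51 without pADX PM replicate 1, -0.024 without pADX PM replicate 2 and -0.074 without the time term. Every ADX array below every Sham array was seen for 2.02% of probe sets in the hippocampus. The 4 ADX arrays had deposited trimmed means from 34.1 to 171, against 85.1 to 99.2 in Sham, and 3'/5' actin ratios of 1.73 to 2.95, against 2.45 to 2.94. Leaving out any 1 ADX or Sham array kept the ADX difference between -1.25 and -1.20.

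In the frontal cortex Fkbp5 was lower in both ADX and pADX than in Sham. ADX arrays stood at 6.21 and 6.50 at PM and at 6.67 at AM. The pADX arrays stood at 6.88 and 6.65 at PM and at 6.89 and 6.84 at AM. In Sham they stood at 7.47 and 7.61 at PM and at 7.34 at AM. No ADX or pADX array reached the lowest Sham array, while ADX and pADX overlapped each other. How many of all probe sets had pADX below Sham in this way was not determined. The difference from Sham was -1.01 ± 0.14 for ADX (2.01-fold) and -0.67 ± 0.13 for pADX (1.59-fold). On the second probe set it was -0.51 ± 0.29 for ADX and -0.38 ± 0.27 for pADX, and there the groups overlapped. Of all probe sets, 0.0161% (5) were called for ADX vs Sham in this region and 8% had every ADX array below every Sham array, a larger share than elsewhere, with 3 arrays a group.

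The amygdala had a smaller gap on the first probe set. ADX arrays stood at 6.65 and 6.03 at PM and at 6.72 and 6.64 at AM. The pADX arrays stood at 7.22 and 6.92 at PM and at 6.65 and 6.86 at AM. Sham arrays stood at 7.55 and 7.21 at PM and at 6.80 and 7.14 at AM. ADX and Sham did not overlap, and pADX overlapped both. ADX differed from Sham by -0.67 ± 0.21 (1.59-fold) on the first probe set and by -0.77 ± 0.22 on the second, without overlap on either. For pADX the values were -0.26 ± 0.21 and -0.31 ± 0.22. The ADX value eased to -0.46 without ADX PM replicate 2, and the pADX value to -0.15 without Sham PM replicate 1. In the amygdala 0.0129% of probe sets were called for ADX vs Sham, and 1.29% had every ADX array below every Sham array.

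The septum was the region on which the 2 probe sets differed most. ADX arrays of the first stood at 6.88 and 6.45 at PM and at 6.78 and 6.64 at AM. The pADX arrays stood at 6.99 and 6.83 at PM and at 7.29 and 6.82 at AM. Sham septum stood at 7.40 and 6.82 at PM and at 7.004 and 6.68 at AM. ADX overlapped Sham, with a difference of -0.29 ± 0.18, which was -0.14 without Sham PM replicate 1. The second probe set gave -1.05 ± 0.28 for ADX, again with overlap. For pADX the difference was 0.00 ± 0.18 on the first and -0.20 ± 0.28 on the second, and on the first its sign turned with the array left out (-0.12 without pADX AM replicate 1 and 0.16 without Sham PM replicate 1).

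In the hypothalamus the treatments overlapped throughout. ADX arrays of the first probe set stood at 6.79 and 6.11 at PM and at 6.29 and 6.69 at AM. The pADX arrays stood at 6.64 and 6.68 at PM and at 6.30 and 6.56 at AM. The Sham arrays of this region stood at 7.14 and 6.81 at PM and at 6.48 and 6.42 at AM. The 2 Sham PM arrays were above every other array of the region, a separation whose share of all probe sets was not determined. ADX differed from Sham by -0.25 ± 0.19 and pADX by -0.17 ± 0.19, and on the second probe set by -0.26 ± 0.37 and -0.14 ± 0.37. The ADX value was -0.07 without ADX PM replicate 2, and the pADX value was -0.05 without Sham PM replicate 1.

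The brainstem regions had low and tight values. In the locus coeruleus ADX arrays stood at 6.10 and 6.06 at PM and at 6.20 and 6.12 at AM. The pADX arrays stood at 6.24 and 6.60 at PM and at 6.54 and 6.44 at AM. The Sham values were 6.52 and 6.60 at PM and 6.37 and 6.41 at AM. All 4 ADX arrays lay below the other 8, a separation whose share of all probe sets was not determined. The gap of ADX to Sham was -0.35 ± 0.09 (1.28-fold), while pADX differed from Sham by -0.02 ± 0.09. That small pADX value ran from -0.08 without pADX PM replicate 2 to 0.06 without pADX PM replicate 1. The second probe set gave -0.26 ± 0.17 for ADX with overlap. No ADX array and all 4 Sham arrays of the locus coeruleus were deposited at the common trimmed mean. In the deposited signals the ADX difference was -0.86, beside a median of -0.42 over all probe sets.

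In the dorsal raphe ADX arrays stood at 6.40 and 6.21 at PM and at 6.33 and 6.24 at AM. The pADX arrays stood at 6.31 and 6.56 at PM and at 6.29 and 6.32 at AM. Sham arrays stood at 6.52 and 6.63 at PM and at 6.34 and 6.27 at AM. The groups overlapped and the differences were the smallest for ADX among the 7 regions, at -0.14 ± 0.08 on the first probe set and -0.01 ± 0.14 on the second. Without ADX PM replicate 2 the first was -0.08. For pADX the probe sets had opposite signs, -0.07 ± 0.08 and 0.40 ± 0.14, both with overlap. The first of these was -0.12 without pADX PM replicate 2 and -0.02 without pADX PM replicate 1.

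For ADX vs Sham within a region, limma called 0.0226% of probe sets in the septum, 0.0161% in the hypothalamus, 0% in the locus coeruleus (0 of 31042, with 1865 at an unadjusted p under 0.05) and 0.00644% in the dorsal raphe. Every ADX array lay below every Sham array for 2.45%, 1.49%, 1.37% and 1.81% of probe sets in those regions, in the same order. In all 7 regions the ADX mean of Fkbp5 was below the Sham mean, on both probe sets, a pattern seen for 1.68% of all probe sets. Differences in size between regions were not tested.

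**Figure D2:**
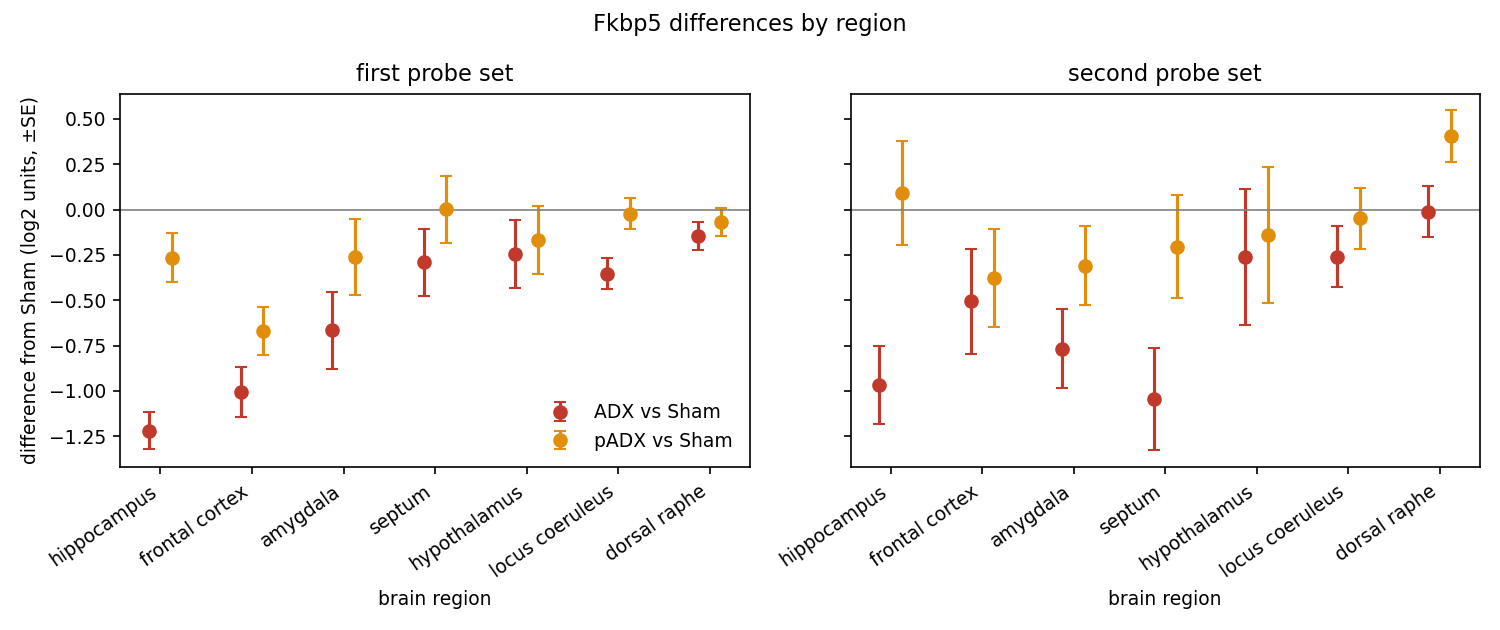
Fkbp5 difference from Sham in each region (log2 units, points with SE bars) for ADX and pADX, with the first probe set in the left panel and the second in the right. ADX points lie below 0 in all 7 regions in both panels, from -1.22 in the hippocampus to -0.14 in the dorsal raphe on the first probe set, while the septum moves from -0.29 on the first to -1.05 on the second.

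Averaged over the 5 regions with complete sets of 12 arrays (amygdala, septum, hypothalamus, locus coeruleus, dorsal raphe), the ADX means were 6.56 and 6.17 at PM and 6.46 and 6.47 at AM. The pADX means were 6.68 and 6.72 at PM and 6.61 and 6.60 at AM. The Sham means were 7.03 and 6.81 at PM and 6.60 and 6.58 at AM. All 4 ADX means were below all pADX and Sham means, and pADX lay within the range of Sham. The share of all probe sets with such a separation of these means was not determined. ADX differed from Sham by -0.34 ± 0.11 (1.27-fold lower), from pADX by -0.24 ± 0.11, and pADX differed from Sham by -0.10 ± 0.11. The second probe set gave -0.47 ± 0.12, -0.41 ± 0.12 and -0.06 ± 0.12 for the same 3 comparisons, with ADX overlapping both Sham and pADX. ADX PM replicate 2, the lowest mean, had weight in this: without it ADX differed from Sham by -0.23 and from pADX by -0.12. Without Sham PM replicate 1, pADX differed from Sham by -0.02. These 5 regions leave out the hippocampus and frontal cortex, and with all 7 regions ADX differed from Sham by -0.54.

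The gap between ADX and Sham had a larger estimate at PM than at AM, a difference that was not tested. Over the 5 regions it was -0.55 ± 0.13 at PM and -0.13 ± 0.13 at AM, and on the second probe set -0.62 ± 0.17 at PM and -0.32 ± 0.17 at AM. Without ADX PM replicate 2 the PM value was -0.36. Region by region on the first probe set, ADX was below Sham in 7 of 7 at PM, by -0.27 in the dorsal raphe to -1.27 in the hippocampus. At AM it was below in 6 of 7, from 0.03 in the hypothalamus to -1.17 in the hippocampus. The hippocampal gap was therefore nearly as wide at AM as at PM, while in the amygdala it was -1.04 at PM and -0.29 at AM. On the second probe set the amygdala had the opposite order, -0.47 at PM and -1.06 at AM, and ADX exceeded Sham at AM in the hypothalamus (0.43) and dorsal raphe (0.25).

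Between the times of day, Sham brains had higher Fkbp5 signals at PM. On the first probe set the PM mean exceeded the AM mean in 7 of 7 regions by 0.17 in the locus coeruleus to 0.52 in the hypothalamus, with a median of 0.27. In 6 of them every PM array stood above every AM array (the septum was the exception). That rests on 2 arrays a time, with 1 AM array in the frontal cortex. The share of all probe sets with such a separation was not determined. A PM mean above the AM mean in all 7 regions was seen for 2.03% of probe sets. On the second probe set PM was higher in 6 of 7, up to 1.10 in the hypothalamus, with the amygdala at -0.15. Over the 5 regions the Sham difference was 0.33 ± 0.13 (1.26-fold) on the first and 0.55 ± 0.17 on the second. It was 0.22 without Sham PM replicate 1 and 0.43 without Sham PM replicate 2. Of the Sham arrays in the dorsal raphe, the PM pair and neither of the AM pair were deposited at the common trimmed mean, so time and scaling state cannot be told apart there.

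In ADX brains the first probe set showed no common direction between the times. PM was above AM in 2 of 7 regions and below in 5, from -0.34 in the amygdala to 0.33 in the hippocampus. On that probe set the hippocampus was the region where ADX kept every PM array above every AM array, with 6.37 at PM and 6.04 at AM, beside 7.64 and 7.21 in Sham. The 5-region value in ADX was -0.10 ± 0.13 and turned to 0.10 without ADX PM replicate 2. The second probe set gave 0.25 ± 0.17 in ADX, with PM higher in 5 of 7 regions, so the probe sets did not share a sign. There the hippocampal ADX arrays overlapped between the times (PM minus AM 0.07). The amygdala (0.44) and septum (0.79) instead had every ADX PM array above every ADX AM array. How many of all probe sets separate the ADX times in this way was not determined. In pADX brains the 5-region value was 0.09 ± 0.13 on the first and 0.26 ± 0.17 on the second, and PM was higher in 3 of 6 and 4 of 6 regions. Whether the time difference itself differed between ADX and Sham was not tested, since the gene was chosen with these values known.

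**Figure D3:**
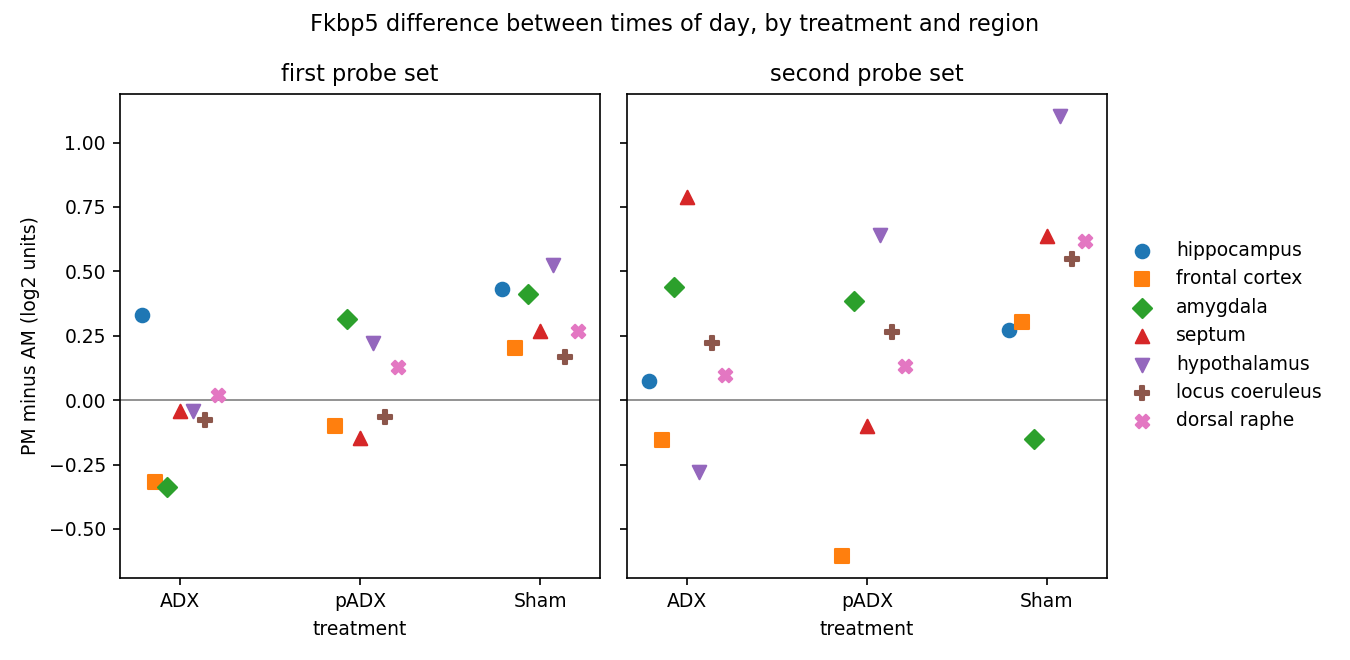
Fkbp5 level at PM minus AM (log2 units) in each region, with ADX, pADX and Sham from left to right, first probe set in the left panel and second in the right, 1 symbol a region. In Sham all 7 regions lie above 0 on the first probe set (0.17 to 0.52) and 6 of 7 on the second, whereas ADX regions lie on both sides of 0.

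Markers of other cell types were read beside the ADX differences, on sums of normalized signal. Bulk tissue does not separate fewer cells of a type from less RNA per cell. The blood markers Hbb (beta-globin) and Alas2 (heme synthesis in red cells) were both lower in ADX than in Sham in all 7 regions, without overlap of their sums. In the hippocampus the sum ran from 869 to 1613 in ADX and from 2724 to 3678 in Sham. Over the 5 regions Alas2 fell (log2 change -1.62, limma adjusted p = 0.0304) and Hbb stood at -1.73 (adjusted p = 0.066). The sums of 7 astrocyte markers were higher in ADX without overlap in the hippocampus (7680 to 9857, against 6573 to 7349 in Sham) and in the locus coeruleus (7488 to 7731, against 6485 to 7182). The single markers did not all follow the sums: 2 of these 7 were lower in ADX in the hippocampus, and 4 of 7 in the locus coeruleus, where the median log2 difference was -0.01. Endothelial sums (6 markers) were higher without overlap in the frontal cortex (1349 to 1564 in ADX, against 1320 to 1324 in Sham) and amygdala (938 to 999, against 825 to 918), although 3 of the 6 were lower in ADX in each, with median log2 differences of -0.04 and -0.01. The sums of 5 choroid plexus markers were higher without overlap in the dorsal raphe (1623 to 1769 in ADX, against 1082 to 1398 in Sham), with 1 of the 5 lower in ADX. Oligodendrocyte, microglial and neuronal sums overlapped in all 7 regions. The part of these markers in the Fkbp5 differences was not tested.

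The other FKBP proteins, many of them peptidyl-prolyl isomerases, lie in the cytosol, nucleus, mitochondria and endoplasmic reticulum. Of 16 listed, 14 were found on the array and 0 passed limma in ADX vs Sham over the 5 regions, where 0.132% of all probe sets (41) passed. Over all probe sets 9.02% had an unadjusted p under 0.05 in ADX vs Sham, 7.7% in pADX vs Sham and 8.02% in ADX vs pADX, while for PM vs AM there were 3251 of 31042 within ADX, 6.29% within pADX and 9.3% within Sham. Counts of list members at that level are to be read beside these shares. Of the 14 FKBP genes 3 reached it in ADX vs Sham, and the list's median was -0.01 beside 0 for all probe sets. In pADX vs Sham and in ADX vs pADX limma called 0 of the 14 as well, with 1 and 4 at an unadjusted p under 0.05. Fkbp4 (FKBP52) stood at 0.04 ± 0.05 (SE). Among the cytosolic and nuclear forms, Fkbp1a (FKBP12, the rapamycin target) stood at -0.07, Fkbp1b (a ryanodine receptor partner) at 0.20, and Fkbp3 at -0.04. Fkbp8, a mitochondrial anchor, stood at 0.07, Fkbp15 at 0.07 and Fkbpl at -0.08. Of the forms of the endoplasmic reticulum, Fkbp2 stood at -0.02, Fkbp7 at -0.10, Fkbp9 at 0.18, Fkbp10 at -0.08, Fkbp11 at 0.00 and Fkbp14 at -0.13. Aipl1, a photoreceptor chaperone with signal at the floor on 55% of arrays, stood at 0.03. In the hippocampus none of the 14 had a difference as low as Fkbp5, and their median was -0.11. In the dorsal raphe, where Fkbp5 stood at -0.14, 3 of the 14 were lower than it.

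The chaperone machinery in which FKBP51 works gave similar counts. Of 18 genes for HSP90 and its co-chaperones, 16 were measured and limma called 0 in any of the 6 comparisons of treatment or time, with 0 to 5 at an unadjusted p under 0.05 (5 for PM vs AM within ADX). In ADX vs Sham their values ran from -0.08 (Ppp5c, a phosphatase of receptor complexes) to 0.07 (St13, which bridges HSP70 and HSP90). Hsp90ab1, the constitutive HSP90, stood at 0.01, Ptges3 (p23, which stabilises the mature complex) at 0.01 and Stip1 (HOP) at -0.05. In Sham, Dnajb1, an HSP40 induced by stress, stood 0.48 higher at PM than at AM (adjusted p = 0.123). The list's count in that comparison was 1 without ADX PM replicate 1 or ADX PM replicate 2, and it was 1 for PM vs AM within ADX without ADX PM replicate 1. The 6 measured partners of FKBP51 outside the receptors (Akt1, Akt2, Phlpp1, Gsk3b, Becn1, Chuk) had 0 calls by limma in each of the 6 comparisons, with 0 to 2 at an unadjusted p under 0.05, and lay between -0.02 and 0.11 in ADX vs Sham.

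Of 6 steroid receptors, 5 were found and 3 were above the floor on some array. Esr1 and Esr2, the estrogen receptors, were at the floor on all arrays. Limma called 0 in each of the 6 comparisons, with 0 or 1 at an unadjusted p under 0.05. In ADX vs Sham over the 5 regions Nr3c1, the glucocorticoid receptor, stood at 0.12 ± 0.07 (SE), Nr3c2, the mineralocorticoid receptor, at 0.25 ± 0.06, and Pgr, the progesterone receptor, at -0.05 ± 0.20. In the hippocampus, where Fkbp5 was -1.22, Nr3c2 was higher in ADX, 9.60 ± 0.24 against 8.98 ± 0.15 in Sham (SD, n = 4 each), a log2 difference of 0.62 (limma adjusted p = 0.308). Nr3c1 in the hippocampus stood at 8.89 ± 0.20 in ADX and 8.61 ± 0.11 in Sham (SD, n = 4 each), a difference of 0.29 (limma adjusted p = 0.51).

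The widest set compared with Fkbp5 was a list of 37 other genes known to be induced by glucocorticoids, of which 35 were found and 32 were off the floor. In ADX vs Sham 4 fell by limma and 0 rose: Sult1a1, a phenol sulfotransferase (-2.06 ± 0.12 SE, adjusted p = 0.000554), Ndrg2 (-0.29), Mt2A, a metallothionein (-0.44), and Glul, glutamine synthetase (-0.43). Of the 32, 30 were below 0, with a median of -0.18 beside 0 for all probe sets, and Fkbp5 at -0.34 was lower than that median. The list was drawn up with earlier results of these arrays known, so this is no independent evidence. The count of 4 was sensitive to single replicates: it was 1 without Sham AM replicate 2 (where 8 probe sets were called in all), 2 or 3 without any other replicate except ADX PM replicate 1, and 4 without that one. In pADX vs Sham 0 were called by limma (2 at an unadjusted p under 0.05), where 0.00644% of all probe sets passed, and the median was -0.02. In ADX vs pADX 3 fell (Sult1a1, Mt2A, Ndrg2), where 0.0483% passed, and the median was -0.21. That count was 1 without ADX AM replicate 1, ADX AM replicate 2 or pADX AM replicate 2, and 2 without pADX AM replicate 1 or Sham AM replicate 2. ADX vs Sham and ADX vs pADX share their ADX arrays.

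Between the times, 1 gene of the list rose at PM in Sham by limma, where 0.0773% of probe sets passed: Gpd1, glycerol-3-phosphate dehydrogenase (1.38 ± 0.11 SE, adjusted p = 0.0139). Without pADX AM replicate 1 or pADX AM replicate 2 the count was 0, and without either Sham PM replicate it was 2. Fkbp5 stood at 0.33 there and the list's median at 0.15. In ADX 0 of the list passed (7 at an unadjusted p under 0.05; 0.029% of all probe sets passed), and in pADX 0 passed (5 at an unadjusted p under 0.05; 0.00966% of all passed). The FKBP family had 0 calls by limma in each of these time comparisons, with 1 to 3 at an unadjusted p under 0.05. The 4 widely used hormone targets did not pass in Sham. Sgk1, a kinase, stood at 1.11 (adjusted p = 0.218) and Tsc22d3 (GILZ, an anti-inflammatory leucine zipper) at 0.43 (adjusted p = 0.147). Per1, a clock gene with signal at the floor on 30% of arrays, stood at 0.48 (adjusted p = 0.354). Klf9 stood at 0.39 (adjusted p = 0.358).

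**Figure D4:**
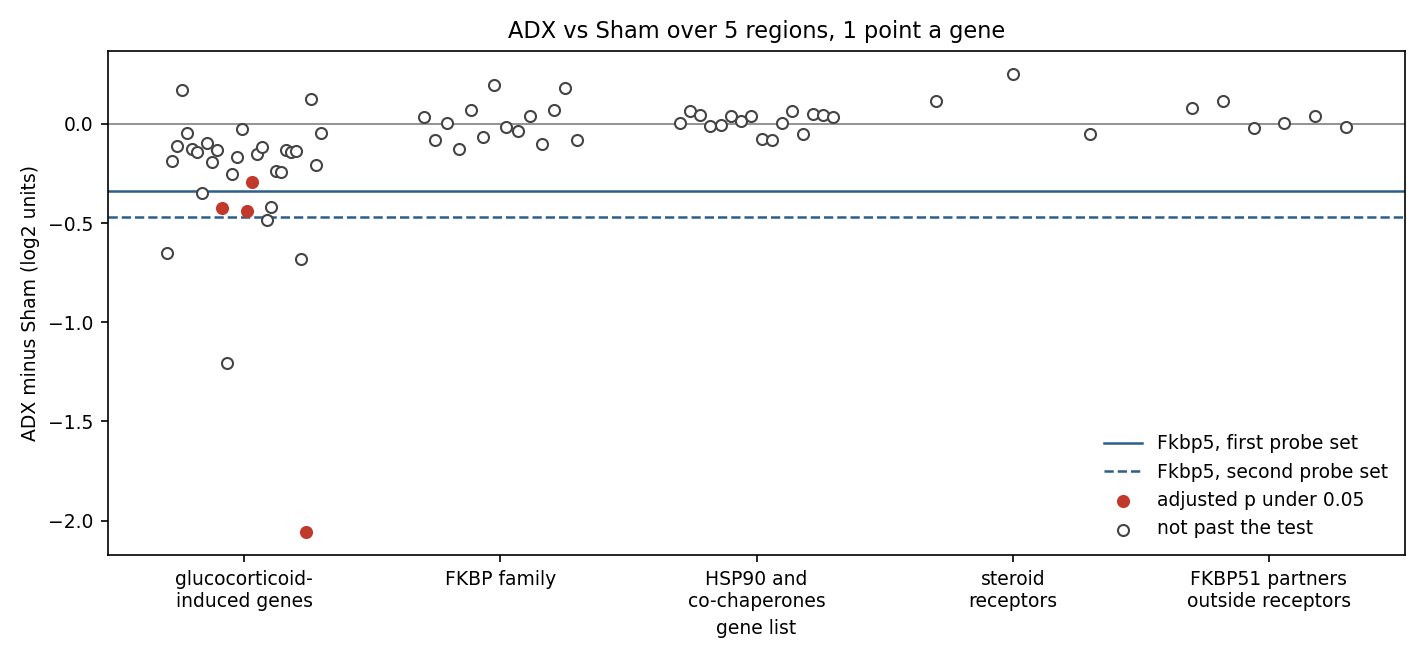
ADX minus Sham (log2 units, mean over 5 regions) for each measured gene of 5 lists, 1 point a gene, filled where limma's adjusted p was under 0.05; horizontal lines mark Fkbp5 on its first (-0.34, solid) and second (-0.47, dashed) probe set. FKBP genes lie between -0.13 and 0.20, HSP90 genes between -0.08 and 0.07, receptors between -0.05 and 0.25 and partners between -0.02 and 0.11, and the 4 filled points are glucocorticoid-induced genes.

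By region the median ADX minus Sham value of the glucocorticoid list was below 0 in all 7. It was -0.25 in the hippocampus, -0.44 in the frontal cortex, -0.19 in the amygdala and between -0.23 and -0.20 in the other 4 regions. Of its 32 genes, 1 lay below Fkbp5 in the hippocampus, 3 in the frontal cortex and 3 in the amygdala. In the septum 12 lay below it, in the hypothalamus 15, in the locus coeruleus 9 and in the dorsal raphe 20. Sgk1 stood at -0.55 in the hippocampus and -0.78 in the dorsal raphe (limma adjusted p = 0.677 and 0.594). Klf9 stood at -0.45 in the hippocampus and -0.29 in the dorsal raphe (limma adjusted p = 0.146 and 0.439).

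Genes that varied most like Fkbp5 were ranked by Pearson r over the 80 arrays after each region's mean was removed, among 13769 probe sets with a single symbol and adequate signal. These arrays share regions, treatments and scaling, so r is a description. Cables1, a cyclin-dependent kinase adaptor, had the highest r (0.72), followed by Gpd1 (0.67), Htra1, a secreted serine protease (0.66), and Aldoc, the aldolase of astrocytes (0.62). Then came Wipf3, an actin regulator (0.62), Sult1a1 (0.62), Scn3b, a sodium channel subunit (0.61), Abcg2, an efflux pump of brain capillaries (0.61), and the transcription factors Klf15 and Klf9 (both 0.59). With the second Fkbp5 probe set these 10 had r between 0.41 and 0.63. Klf9, Gpd1 and Sult1a1 are on the glucocorticoid list. Over 30 measured members of that list the median r was 0.42, beside 0.01 for all eligible probe sets. The lowest r belonged to Fabp7, a fatty acid carrier of radial glia and astrocytes (-0.60), Glra2, a glycine receptor subunit (-0.60), Rab9b (-0.60), Tmeff1 (-0.59) and Slco1a4, an organic anion transporter of brain endothelium (-0.59).

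Since these genes were picked for varying with Fkbp5 on the same arrays, their ADX values below are a description that the choice partly fixes. Htra1 fell in ADX over the 5 regions (-1.10, limma adjusted p = 0.00207) and stood at -1.32 in the hippocampus and -1.17 in the frontal cortex. Aldoc fell as well (-0.32, limma adjusted p = 0.0304). Cables1 stood at -0.44 over the 5 regions (limma adjusted p = 0.225), at -0.59 in the hippocampus and at -1.03 in the frontal cortex. Wipf3 stood at -0.36 over the 5 regions (limma adjusted p = 0.37), at -1.42 in the hippocampus and at -0.74 in the frontal cortex. Of the 8 with a sequence in the promoter table, 1 (Sult1a1) held the half-site described above and 0 held the pair.

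**Figure D5:**
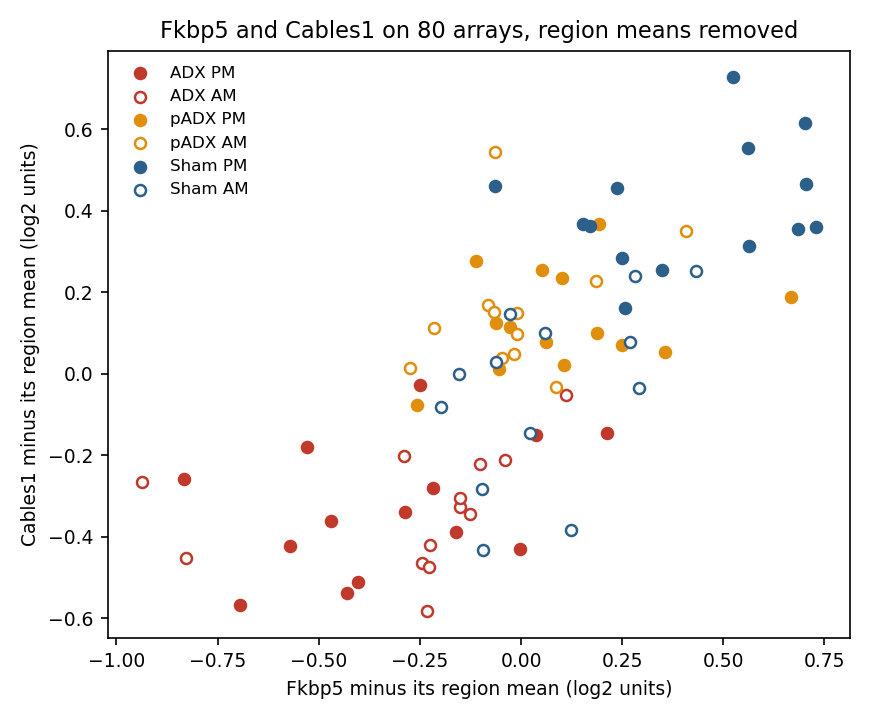
Fkbp5 (first probe set, horizontal) and Cables1 (vertical) on 80 arrays, each as log2 signal minus the mean of its region, coloured by treatment, filled for PM and open for AM. The points climb together (r = 0.72). Of the 27 ADX arrays 24 lie below 0 on both axes and the other 3 above 0 for Fkbp5 only, and 13 of the 14 Sham PM arrays lie above 0 on both.

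Over the 7 region means, without regard to treatment, the genes most like Fkbp5 were Fam107a, Fam117b, Rasgrp1, Oaf and Dlg3, with r between 0.996 and 0.997 over 7 points. Their ADX vs Sham values over the 5 regions ran from -0.28 (Fam107a, measured there by another probe set than in the list) to 0.07 (Rasgrp1), and none passed limma's adjusted threshold.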

How the data were processed

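The deposited table holds 1 linear intensity per probe set and array for 82 arrays. How these intensities were scaled and background-corrected is not stated by the labels or headers read here. Quantile normalization over all arrays was followed by a floor at 16, which held 27.4% of values, and by log2. After removal of 57 control probe sets, 31042 entered the tests unfiltered (limma 3.58.1, lmFit and eBayes with trend, R 4.3.3, Benjamini-Hochberg over all probe sets, threshold 0.05). For comparisons across regions the 12 combinations of treatment, time and replicate were averaged over 5 regions, without the hippocampus and frontal cortex. These fits had time as a term for treatment contrasts and 6 means for time contrasts. Each region was also fitted alone. The code was tested on simulated data. For arrays their number limits the precision.

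Symbols came from the platform annotation: 20826 probe sets had 1, 436 had several and 9780 had none, and 20758 were matched by identifier to RefSeq (GRCr8). Fkbp5 and all gene lists were chosen with earlier results of these data known. Named genes were the 10 highest and 5 lowest in region-centred r, the 5 highest over region means, list members past the test, every FKBP family and steroid receptor gene, and Tsc22d3, Sgk1, Per1 and Klf9; r was ranked among probe sets above the 40th percentile of mean signal with at most 10% of arrays at the floor. A gene with several probe sets was given by the one with the highest mean, and other genes named as examples were chosen after their values were seen. Same-numbered replicates did not deviate together: over 15 pairs r ran from -0.07 to 0.06, so the numbers were not used as pairs. The 5-region means did join same-numbered arrays of a treatment and time across regions. Whether those arrays share an animal is not known, so a mean may mix animals and the means may not be independent. Alternatives were other normalizations, floors and filters, other region sets, a replicate block, the second probe set and each replicate left out. No protein sequences were used here. The 2 arrays with no treatment label entered no comparison.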

Additional observations from a re-analysis of the deposited data

Results flagged for a closer look

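On the first Fkbp5 probe set, 2 arrays stood far from the other 3 of their region and treatment. Amygdala ADX PM replicate 2 read 6.03, below the others at 6.64 to 6.72. Dorsal raphe pADX PM replicate 2 read 6.56, above the others at 6.29 to 6.32. In all 42 sets of 4 to 10 arrays were examined over both probe sets, and chance alone flags about 1 in 20. On the same probe set, in the locus coeruleus every ADX PM array was below every ADX AM array (PM minus AM -0.079). Every Sham PM array there was above every Sham AM array (0.17), a difference between the treatments that was not tested. The second probe set had the same sign in both, 0.22 in ADX and 0.55 in Sham. With 2 arrays a time, the share of all probe sets with such opposite separations was not determined.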

How the results depend on the processing

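Over the 5 regions Fkbp5 kept its sign in all 21 alternatives for ADX vs Sham, pADX vs Sham and ADX vs pADX. It did so in all 21 for PM vs AM within Sham and in 19 of 21 for PM vs AM within ADX. These counts include settings that could not change the value. Such were a replicate left out of a treatment outside the comparison, and the replicate block, which was balanced over treatment and time. The counts are therefore no measure of robustness. The cause of the changes below was not tested. In the signals as deposited, where the median of all probe sets moved by -0.21 (ADX vs Sham) and -0.12 (ADX vs pADX), Fkbp5 stood at -0.616 for ADX vs Sham, -0.398 for ADX vs pADX, -0.866 for ADX vs Sham at PM and -0.366 at AM. By region ADX vs Sham then stood at -1.42 in the hippocampus, -0.559 in the hypothalamus, -0.863 in the locus coeruleus and -0.704 in the dorsal raphe, and pADX vs Sham at -0.045, -0.194 and -0.406 in the hippocampus, locus coeruleus and dorsal raphe. The Sham step from hippocampus to dorsal raphe was 0.440 as deposited, 0.708 with normalization within regions and 1.68 on the second probe set. With the second probe set (chosen for the step after seeing the data) ADX vs pADX was -0.409, PM vs AM was 0.552 in Sham, 0.253 in ADX and 0.264 in pADX, and ADX vs Sham at AM was -0.320. By region it gave ADX values of -0.965 (hippocampus), -0.506 (frontal cortex), -1.05 (septum) and -0.011 (dorsal raphe), and pADX values of 0.090 (hippocampus, reversed), -0.378 (frontal cortex) and 0.404 (dorsal raphe). With all 7 regions ADX vs Sham was -0.537, -0.744 at PM and -0.329 at AM; septum and amygdala alone gave -0.744 at PM. Without time as a term, hippocampal pADX vs Sham was -0.074.

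Counts of called probe sets moved more. For ADX vs Sham (41) they were 13715 as deposited, 17 with a floor of 32, 103 with a floor of 1, 18 in septum and amygdala alone, 111 above the 40th percentile and 21 with a replicate block. For ADX vs pADX (15) they were 3581 as deposited, 51 with a floor of 1, 4 in septum and amygdala and 69 above the 40th percentile. For pADX vs Sham (2) they were 0 as deposited, within regions, with either floor and with 7 regions, and 1 in septum and amygdala or above the 40th percentile. PM vs AM within Sham (24) gave 40 within regions, 15 with a floor of 32, 11 in septum and amygdala and 4 with 7 regions. Within ADX (9) it gave 0 as deposited, 17 with a common trimmed mean, 1 with a floor of 1, 14 in septum and amygdala, 3 above the 40th percentile and 2 with a replicate block. Within pADX (3) it gave 6 as deposited and with 7 regions, 5 with a common trimmed mean, 8 within regions, 9 with a floor of 32 and 0 above the 40th percentile. As deposited, 13715 of all 31042 probe sets were called in ADX vs Sham, where the median of all probe sets was -0.21. Beside that share, 29 of 35 glucocorticoid, 16 of 16 HSP90 and 10 of 14 FKBP list members were called. In ADX vs pADX 3581 of 31042 were called, with 17, 4 and 4 members of the same lists. The replicate block left 2 glucocorticoid list calls in ADX vs Sham (4 without it). It could not change Fkbp5 differences where replicates were balanced, as over the 5 regions, and elsewhere left them within the spread between replicates.

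Leaving out 1 replicate at a time, Fkbp5 ran from -0.38 to -0.23 for ADX vs Sham, -0.15 to -0.023 for pADX vs Sham, -0.27 to -0.12 for ADX vs pADX, 0.22 to 0.43, -0.29 to 0.10 and 0.073 to 0.11 for PM vs AM in Sham, ADX and pADX, and -0.75 to -0.36 for ADX vs Sham at PM. Hippocampal pADX vs Sham ran from -0.51 to -0.024. Called probe sets ran from 8 to 43 (ADX vs Sham), 1 to 8 (pADX vs Sham), 4 to 28 (ADX vs pADX), 13 to 210 (Sham), 4 to 240 (ADX) and 4 to 150 (pADX).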

Other observations

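The 2 arrays that carry no treatment label read 6.80 and 5.92 on the first Fkbp5 probe set and 5.93 and 5.27 on the second. Their titles open with frontal cortex, as do those of the septum, dorsal raphe and locus coeruleus arrays. They hold no region code, so the region of these 2 arrays is not known. On the first probe set the lower of them was below every array placed in the frontal cortex groups, which ran from 6.21 to 7.61.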
